A study of Homo sapiens with 8 samples.

Results

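The 10 genes described here act in stress responses or in the control of cell growth and division. They were chosen by symbol, with earlier results of these data known: GADD45A, GADD45B, GADD45G, PLK2, PLK3, BTG1, BTG2, TOB1, TOB2 and WEE1. All 10 were found among the 62086 genes of the count table, and all 10 were among the 20165 that passed the filter on low counts. They were measured by RNA-seq in BG01, a single established line of human embryonic stem cells (hESCs) grown without feeder cells in mTeSR medium. The cells received 5 µg/mL of anti-M8nAb, an antibody that neutralizes the secreted glycoprotein MFGE-8, or 5 µg/mL of normal mouse IgG as the control, and RNA was taken after 12 or 24 h. Each of the 4 groups (IgG 12 h, anti-M8nAb 12 h, IgG 24 h, anti-M8nAb 24 h) had 2 libraries labelled as biological replicates. Whether each was a culture of its own is not stated, and the p-values then reflect only how far libraries of one label differ. The comparisons ask how these genes responded when MFGE-8 activity was blocked.

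GADD45 proteins are small stress sensors that bind and activate the kinase MAP3K4 above p38 and JNK, and they also bind PCNA and the CDK1–cyclin B1 complex. PLK2 and PLK3 are polo-like kinases that respond to stress and DNA damage, unlike their relative PLK1, which drives entry into mitosis. BTG1, BTG2, TOB1 and TOB2 are antiproliferative proteins that bring the CCR4–NOT deadenylase to mRNAs and shorten their poly(A) tails, and WEE1 is the kinase that keeps CDK1 inactive by phosphorylation.

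The libraries held 21010400 to 21792716 counts over genes. The markers of undifferentiated hESCs were abundant in all 8 libraries, and the summed level of the 10 on the list ranged from 6244 to 7970 CPM (counts scaled to library size). The 12 early differentiation markers summed to 175 to 260 CPM, of which most was NES, and 5 of them fell below the filter. The 8 fibroblast and mesenchymal markers summed to 531 to 733 CPM, most of it THY1, which hESCs also express. COL1A1, COL1A2 and PDGFRB were present too, with group means of 63.5 to 83.0, 31.2 to 66.5 and 23.0 to 54.7 CPM. COL3A1 and POSTN were low, and DCN and LUM were below the filter. The sums of both lists were highest with anti-M8nAb at 24 h, and their part in the results was not tested. The second library of anti-M8nAb at 12 h stood apart in the counts of pseudogenes, with 5560 CPM against 3823 in its replicate and 2662 to 3101 in the other 6 libraries. Without it, the counts of members higher (5) and lower (1) at 12 h did not change.

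The bases upstream of a start site are where many regulators of these genes bind, so promoters of members whose 24 h responses were among the largest are printed first. A promoter of 8 of the 10 genes was matched in RefSeq (GRCh38.p14), and that of TOB1 in 2 forms. GADD45A and WEE1 had no match and were not searched. The search took the 250 bases before the start, on both strands, for 11 motifs, and 0 of the matches overlapped another. The 3 promoters printed are those of GADD45B and GADD45G, family members whose transcripts moved in opposite directions, and of PLK2, the one matched member with a match to the p53 half-site consensus. They are written 5′ to 3′ on the strand of the gene, without bases that lie inside the annotated gene. Distances below count from the RefSeq start, which lies further inside the annotated gene in PLK2 and GADD45B. The bases left out before that start number 53 in PLK2, 5 in GADD45B and 0 in GADD45G. Capitals mark the E-box (CACGTG), the CCAAT box (CCAAT), the TATA box (TATAAA), the ATF4 composite motif (TGATGNAA, on the other strand in GADD45G) and the p53 half-site, of which a full p53 response element holds a pair. GADD45B lies on the plus strand and the bases shown are chr19:2475877-2476121, GADD45G lies on the plus strand with chr9:89604762-89605011, and PLK2 lies on the minus strand with chr5:58460140-58460336.
GADD45B: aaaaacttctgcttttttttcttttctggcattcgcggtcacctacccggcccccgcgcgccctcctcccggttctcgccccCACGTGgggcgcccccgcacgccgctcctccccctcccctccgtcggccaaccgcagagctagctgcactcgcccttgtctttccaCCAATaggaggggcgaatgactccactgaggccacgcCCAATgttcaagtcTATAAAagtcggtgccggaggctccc
GADD45G: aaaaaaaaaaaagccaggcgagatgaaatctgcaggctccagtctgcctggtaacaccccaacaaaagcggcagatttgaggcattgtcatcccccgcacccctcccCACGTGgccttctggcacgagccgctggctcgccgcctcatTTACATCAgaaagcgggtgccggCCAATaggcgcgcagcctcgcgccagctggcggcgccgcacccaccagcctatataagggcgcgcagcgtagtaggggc
PLK2: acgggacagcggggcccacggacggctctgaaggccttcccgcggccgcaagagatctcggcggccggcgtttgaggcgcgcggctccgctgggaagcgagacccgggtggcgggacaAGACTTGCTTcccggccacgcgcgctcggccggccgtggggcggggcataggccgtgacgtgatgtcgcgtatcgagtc

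GADD45B and GADD45G both held an E-box and a CCAAT box. The E-box stood 163 to 168 bases before the start in GADD45B and 138 to 143 in GADD45G, and 6.34% of all 35116 promoters held one. The CCAAT box was found in GADD45B, GADD45G, BTG1, BTG2 and TOB1, against 32% of all promoters. GADD45B had the TATA box letters TATAAA 26 to 31 bases before the start, and BTG1 had them at 28 to 33, where 10.7% of all promoters held them. No other form of the TATA box was searched. The related letters TATATAAG stand in GADD45G, within the printed bases, and in PLK2, in bases not printed, and they were not counted. The ATF4 composite motif was matched in GADD45G and PLK3 (3.14% of all), the TEAD motif (GGAATG) in PLK3 and TOB1 (11.9%) and the FOXO motif (TGTTTAC) in BTG1 (2.98%). The match to the p53 half-site in PLK2 lay 123 to 132 bases before the start, and 5.57% of all promoters held such a half-site. The AP-1 motif (TGACTCA, 4.2%), the cAMP response element (TGACGTCA, 1.65%) and the CArG box (1.16%) were found in 0 of the 8 matched members. The GC box (GGGCGG) was in 6 of the 8 matched members, PLK2, PLK3, BTG1, BTG2, TOB1 and TOB2, against 42.6% of all promoters, and it is not in capitals. TOB1 was counted if either of its forms matched. Its CCAAT and GC boxes stood only in the form that lies wholly inside the annotated gene. A match describes letters and was not tested for binding.

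All 10 genes differed between anti-M8nAb and IgG at 24 h. GADD45A, GADD45B, PLK2, PLK3, BTG1, BTG2 and WEE1 were higher and GADD45G, TOB1 and TOB2 lower with anti-M8nAb than with IgG, at an adjusted p under 0.05 in edgeR's quasi-likelihood test, where 21.2% of all genes tested were higher and 21.3% lower. In all 10 genes both anti-M8nAb libraries lay outside the range of both IgG libraries at 24 h. The share of all genes so separated was not counted. Genes that did not pass the test, such as PODXL and MAPK8, were separated too. GADD45A, GADD45B, PLK2, BTG2 and WEE1 rose at least 2-fold (background 4.76%), and GADD45G fell at least 2-fold (background 4.84%). At 12 h, GADD45A, GADD45B, PLK2, BTG2 and WEE1 were higher (background 15.8%) and TOB2 was lower (background 16.4%). At that time GADD45B alone rose at least 2-fold (background 3.40%), and 0 members fell that far (background 2.97%). The median log2 fold change of the 10 genes was 0.28 at 12 h and 0.92 at 24 h, against 0.00 over all genes at both times. Taken without sign, the 24 h changes had a median of 1.27 in the 10 genes and 0.32 in all genes on the log2 scale. In bulk RNA, fewer cells that express a gene and less RNA per cell cannot be told apart.

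**Figure D1:**
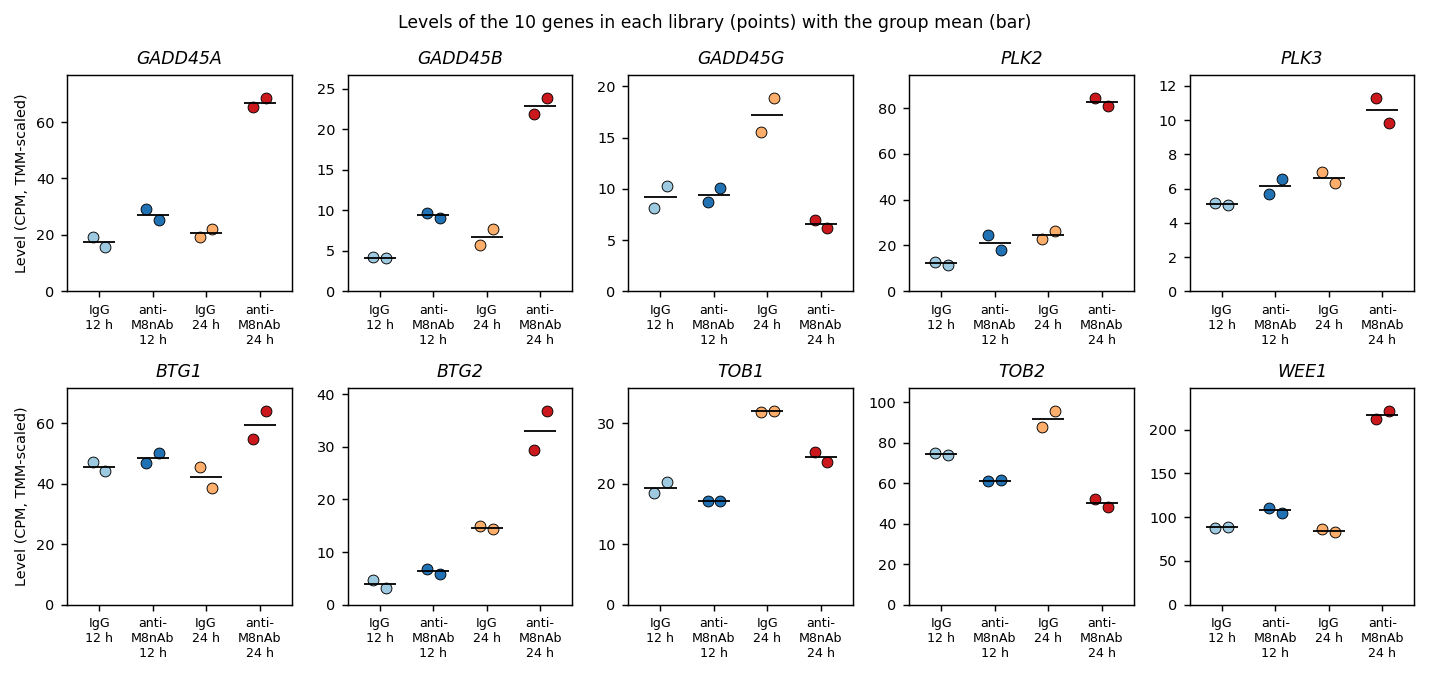
Level of each of the 10 genes (vertical axis, TMM-scaled CPM from 0) in each library (points) with the group mean (bar), by group. At 24 h the anti-M8nAb libraries lie above the IgG libraries in 7 genes and below them in GADD45G, TOB1 and TOB2.

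GADD45A, the family member known best as a target of p53, is found on chromosome 1 of GRCh38 from 67685201 to 67688334. It stood at 19.1 and 15.7 CPM with IgG and 29.0 and 25.1 CPM with anti-M8nAb at 12 h. After 24 h it was 19.4 and 22.2 CPM with IgG and 65.2 and 68.6 CPM with anti-M8nAb. The groups stood in the order IgG 12 h, IgG 24 h, anti-M8nAb 12 h and anti-M8nAb 24 h without overlap, though the first pair lay only just apart. The mean level rose 1.55-fold at 12 h (log2 fold change 0.63, SE 0.11, adjusted p = 6.22e-06) and 3.21-fold at 24 h (1.68, SE 0.10, adjusted p = 8.98e-19). With IgG alone the level at 24 h did not pass the test against 12 h (log2 fold change 0.26, adjusted p = 0.113).

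GADD45B, a member induced early by cytokines and TGF-β in many cells, lies on chromosome 19 from 2476122 to 2478259. It started lower, with 4.24 and 4.09 CPM with IgG at 12 h, which stand for 92 and 89 counts, and 9.62 and 9.11 CPM with anti-M8nAb. By 24 h there were 5.73 and 7.71 CPM with IgG and 21.9 and 23.9 CPM with anti-M8nAb. The 4 groups did not overlap and stood in the order IgG 12 h, IgG 24 h, anti-M8nAb 12 h and anti-M8nAb 24 h. The rise was 2.25-fold at 12 h (log2 1.17, SE 0.17, adjusted p = 3.48e-07) and 3.40-fold at 24 h (log2 1.77, SE 0.15, adjusted p = 9.34e-14).

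GADD45G, the third member of the family, lies on chromosome 9 from 89605012 to 89606555 and went the other way. At 12 h the treatments overlapped, with 8.11 and 10.3 CPM with IgG and 8.73 and 10.1 CPM with anti-M8nAb, and the log2 fold change was 0.04 (95% interval −0.28 to 0.35, adjusted p = 0.892). At 24 h the level was 15.6 and 18.9 CPM with IgG and 6.96 and 6.19 CPM with anti-M8nAb. The IgG 24 h libraries were the highest of all 8 and the anti-M8nAb 24 h libraries the lowest. The level at 24 h fell to 0.381 times that of IgG (log2 −1.39, SE 0.15, adjusted p = 3.48e-10).

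In the control cells GADD45G rose 1.87-fold from 12 to 24 h (log2 0.90, SE 0.15, adjusted p = 2.04e-05). In cells given anti-M8nAb it fell to 0.697 times its 12 h level (log2 −0.52, SE 0.16, adjusted p = 0.0113). These comparisons share libraries with those between treatments. The fall over time was lost without either of 2 libraries, with adjusted p = 0.121 without anti-M8nAb 12 h replicate 2 and 0.103 without anti-M8nAb 24 h replicate 2.

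PLK2, a polo-like kinase that p53 induces and that acts in centriole duplication, lies on chromosome 5 from 58453982 to 58460139. Its level was 12.7 and 11.7 CPM with IgG and 24.4 and 18.0 CPM with anti-M8nAb at 12 h. By 24 h it was 23.0 and 26.3 CPM with IgG and 84.5 and 81.1 CPM with anti-M8nAb. The 12 h anti-M8nAb libraries overlapped the 24 h IgG libraries, and the 24 h anti-M8nAb libraries stood far above all others. PLK2 rose 1.74-fold at 12 h (log2 0.80, SE 0.12, adjusted p = 4.64e-07) and 3.36-fold at 24 h (log2 1.75, SE 0.10, adjusted p = 2.42e-19).

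PLK3, a related kinase of the stress response, lies on chromosome 1 from 44800377 to 44805990 and changed less. Its level was 5.16 and 5.01 CPM with IgG and 5.69 and 6.56 CPM with anti-M8nAb at 12 h. Its 24 h level was 6.97 and 6.30 CPM with IgG and 11.3 and 9.84 CPM with anti-M8nAb. The libraries did not overlap between treatments at either time, but the log2 fold change at 12 h of 0.27 did not pass the test (95% interval −0.10 to 0.63, adjusted p = 0.275). At 24 h PLK3 was 1.59-fold higher (log2 0.67, SE 0.17, adjusted p = 0.000950), on 232 and 202 counts against 157 and 143.

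BTG1 lies on chromosome 12 from 92140278 to 92145846, and its level moved least between treatments among the genes that rose. At 12 h it was 47.0 and 44.1 CPM with IgG and 46.8 and 50.1 CPM with anti-M8nAb, which overlapped (log2 0.09, 95% interval −0.09 to 0.26, adjusted p = 0.475). Its 24 h level was 45.6 and 38.5 CPM with IgG and 54.9 and 64.0 CPM with anti-M8nAb. The 24 h anti-M8nAb libraries were above the other 6, which overlapped and lay between 38.5 and 50.1 CPM. The rise at 24 h was 1.41-fold (log2 0.50, SE 0.09, adjusted p = 5.81e-06), and it was lost in the analysis of FPKM without a filter (adjusted p = 0.0746). The counts took in reads of both strands, and 10.4% of the BTG1 exon sequence overlaps LINC01619 and 5.64% overlaps BTG1-DT.

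BTG2, which p53 induces and which slows the passage from G1 to S phase, lies on chromosome 1 from 203305491 to 203309602. Its level was 4.75 and 3.08 CPM with IgG at 12 h, which stand for 103 and 67 counts, and 6.82 and 5.79 CPM with anti-M8nAb. After 24 h it was 14.9 and 14.4 CPM with IgG and 29.4 and 36.8 CPM with anti-M8nAb. The 4 groups did not overlap, and both groups of 24 h were above both groups of 12 h. BTG2 rose 1.61-fold at 12 h (log2 0.69, SE 0.18, adjusted p = 0.00301) and 2.25-fold at 24 h (log2 1.17, SE 0.13, adjusted p = 4.50e-10). The call at 12 h was lost without IgG 12 h replicate 2, the lowest library (log2 0.42, adjusted p = 0.158).

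BTG2 also rose with time in the control cells. With IgG it was 3.75-fold higher at 24 h than at 12 h (log2 1.91, SE 0.16, adjusted p = 1.57e-11), and it stood at place 5 of 20165 genes by p in that comparison. With anti-M8nAb it was 5.25-fold higher at 24 h than at 12 h (log2 2.39, SE 0.15, adjusted p = 1.06e-17).

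TOB1, on chromosome 17 from 50862223 to 50867978, was lower with anti-M8nAb at 24 h. Its level was 18.5 and 20.2 CPM with IgG and 17.1 CPM in each library with anti-M8nAb at 12 h. At 24 h it was 31.9 and 32.0 CPM with IgG and 25.2 and 23.6 CPM with anti-M8nAb. Both anti-M8nAb libraries were the lower ones at each time, while both 24 h groups were above both 12 h groups. The log2 fold change was −0.18 at 12 h (95% interval −0.40 to 0.04, adjusted p = 0.222) and −0.39 at 24 h (SE 0.10, adjusted p = 0.00155), the latter a level of 0.765 times that of IgG. On log2(FPKM + 0.1) with limma the difference at 12 h passed the test (log2 −0.23, adjusted p = 0.0393). Of the TOB1 exon sequence, 11.1% overlaps TOB1-AS1 on the other strand.

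TOB2, its closest relative, lies on chromosome 22 from 41433494 to 41446801 and fell at both times. Its level was 74.7 and 73.7 CPM with IgG and 61.0 and 61.3 CPM with anti-M8nAb at 12 h. By 24 h it was 87.6 and 95.6 CPM with IgG and 52.1 and 48.0 CPM with anti-M8nAb. The 4 groups did not overlap, with IgG 24 h the highest and anti-M8nAb 24 h the lowest. TOB2 fell to 0.825 times the IgG level at 12 h (log2 −0.28, SE 0.07, adjusted p = 0.00206) and to 0.546 times at 24 h (log2 −0.87, SE 0.07, adjusted p = 6.93e-14). The BTG and TOB genes, whose proteins share a domain and the same deadenylase, thus held 2 genes that rose and 2 that fell at 24 h.

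WEE1, on chromosome 11 from 9573670 to 9593457, rose with anti-M8nAb at both times. Its level was 87.7 and 88.7 CPM with IgG and 110.4 and 104.7 CPM with anti-M8nAb at 12 h. At 24 h it was 86.3 and 82.4 CPM with IgG and 212.4 and 221.1 CPM with anti-M8nAb. All 4 IgG libraries lay below all 4 anti-M8nAb libraries. The rise was 1.22-fold at 12 h (log2 0.29, SE 0.06, adjusted p = 0.000255) and 2.57-fold at 24 h (log2 1.36, SE 0.06, adjusted p = 3.24e-23). From 12 to 24 h the level with IgG did not pass the test (log2 −0.06, 95% interval −0.19 to 0.06, adjusted p = 0.557).

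**Figure D2:**
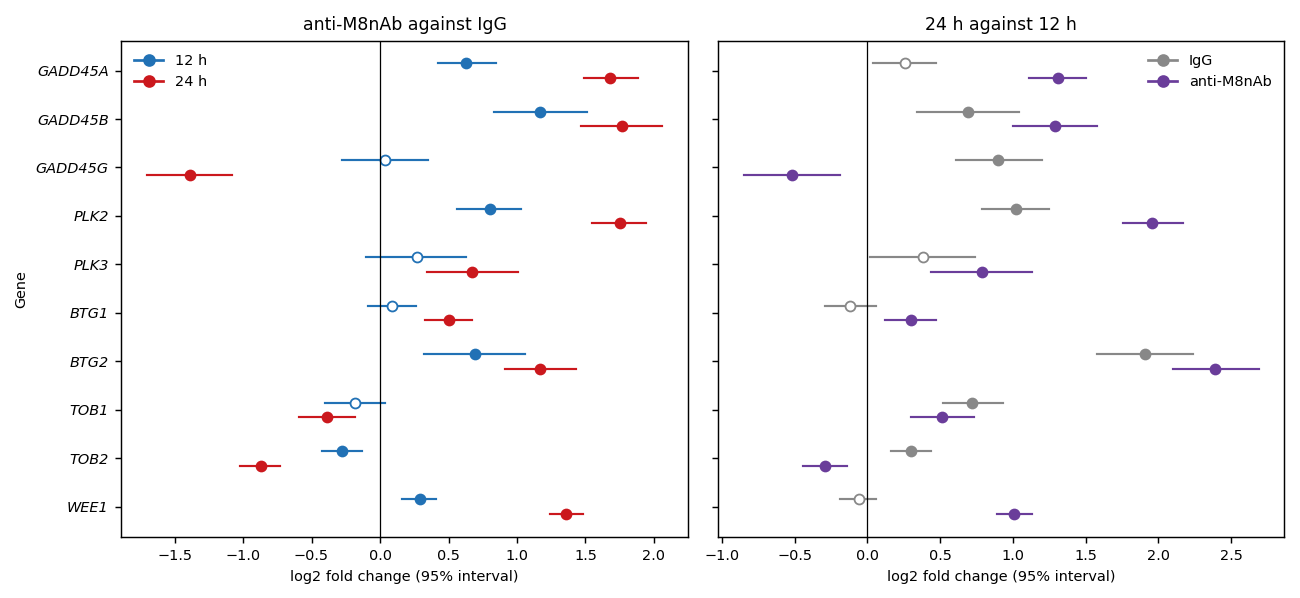
Log2 fold change of each gene (horizontal axis) with its 95% interval, for anti-M8nAb against IgG at 12 and 24 h (left) and for 24 h against 12 h within IgG and within anti-M8nAb (right), with filled points at an adjusted p under 0.05. On the left, GADD45G stands near 0 at 12 h and at −1.39 at 24 h. On the right, GADD45G and TOB2 lie on opposite sides of 0 with both points filled, and BTG1 and WEE1 lie on opposite sides with the IgG point not past the test.

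A separate contrast asked whether the response to anti-M8nAb differed between the times. The response was more positive at 24 h in GADD45A, PLK2, BTG1 and WEE1 (4 of 10, background 5.79%) and more negative in GADD45G and TOB2 (2 of 10, background 6.54%). WEE1 had a difference of log2 1.08 (SE 0.09, adjusted p = 4.05e-13), GADD45A of 1.05 (SE 0.15, adjusted p = 7.77e-07) and PLK2 of 0.95 (SE 0.15, adjusted p = 1.51e-05). GADD45G had −1.43 (SE 0.22, adjusted p = 5.93e-06) and TOB2 −0.59 (SE 0.10, adjusted p = 3.48e-05).

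BTG1 passed narrowly, with 0.41 (SE 0.12, adjusted p = 0.0192), and the call was lost without any one of 4 libraries. The adjusted p was 0.142 without IgG 12 h replicate 1, 0.0666 without anti-M8nAb 12 h replicate 1, 0.165 without IgG 24 h replicate 2 and 0.171 without anti-M8nAb 24 h replicate 2. For GADD45B the difference of 0.60 did not pass (95% interval 0.14 to 1.05, adjusted p = 0.0751), though it did without IgG 24 h replicate 2 (0.82, adjusted p = 0.0251). PLK3 (0.40, 95% interval −0.09 to 0.90), BTG2 (0.49, 0.03 to 0.94) and TOB1 (−0.21, −0.51 to 0.09) had adjusted p of 0.325, 0.168 and 0.410.

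Several of the genes also changed with time in the control cells. With IgG, GADD45B, GADD45G, PLK2, BTG2, TOB1 and TOB2 were higher at 24 h (6 of 10, background 7.01%) while 0 members were lower (background 6.64%), by edgeR and by DESeq2, and 0 were lower at an unadjusted p under 0.05 in edgeR. PLK2 rose 2.02-fold (log2 1.02, adjusted p = 1.90e-08), TOB1 rose 1.65-fold (log2 0.72, adjusted p = 1.88e-06) and TOB2 rose 1.23-fold (log2 0.30, adjusted p = 0.00190). GADD45B rose 1.61-fold (log2 0.69, adjusted p = 0.00490), a call that was lost without IgG 12 h replicate 2 (adjusted p = 0.0661) or IgG 24 h replicate 2 (adjusted p = 0.164). The median log2 change over time with IgG was 0.54 in the 10 genes and 0.00 in all genes.

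With anti-M8nAb, a comparison added after the data had been seen, 8 members were higher at 24 h than at 12 h (background 16.1%) and GADD45G and TOB2 were lower (background 15.7%). PLK2 rose 3.90-fold, GADD45A 2.47-fold, GADD45B 2.44-fold and WEE1 2.02-fold, and the largest adjusted p of these was 7.82e-10. TOB2, which rose with IgG, fell to 0.818 times its 12 h level with anti-M8nAb (log2 −0.29, adjusted p = 0.00183). This call was lost without anti-M8nAb 24 h replicate 2 (log2 −0.23, adjusted p = 0.0558). TOB1 rose 1.43-fold over time with anti-M8nAb (log2 0.51, adjusted p = 0.000170), so it rose in both treatments and was lower with anti-M8nAb at 24 h. BTG1 rose 1.23-fold (log2 0.30, adjusted p = 0.00632), and the call was lost without anti-M8nAb 12 h replicate 1 (adjusted p = 0.0669) or anti-M8nAb 24 h replicate 2 (adjusted p = 0.212).

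The 10 genes could be ranked on FPKM, which the authors scaled by length. That length was near the sum of all annotated exons of a gene (9251 bases for WEE1, 1925 for GADD45A). The order therefore depends on it, and a gene whose main mRNA is shorter than this sum reads too low. With IgG at 12 h TOB2 had the highest value, at 17.3 ± 0.223 FPKM (SD, n = 2). WEE1 (9.64), BTG1 (9.48), GADD45A (9.16), TOB1 (7.75) and GADD45G (7.03) followed it, and PLK2 (2.65), GADD45B (1.97), PLK3 (1.55) and BTG2 (1.44) were the lowest in FPKM. With anti-M8nAb at 24 h GADD45A led, at 34.0 ± 1.21 FPKM, ahead of WEE1 at 22.9 ± 0.637 and PLK2 at 17.4 ± 0.514. BTG1 (12.0 ± 1.30), BTG2 (11.7 ± 1.84), TOB2 (11.3 ± 0.667) and GADD45B (10.5 ± 0.661) then lay close together, each within the summed SDs of the next. GADD45G, at 4.86 FPKM, and PLK3, at 3.10 FPKM, were the lowest there. Within the GADD45 family, GADD45G was above GADD45A with IgG at 24 h (13.5 ± 1.85 against 11.2 ± 1.15 FPKM, a gap close to the spread), and GADD45A was far above it with anti-M8nAb.

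**Figure D3:**
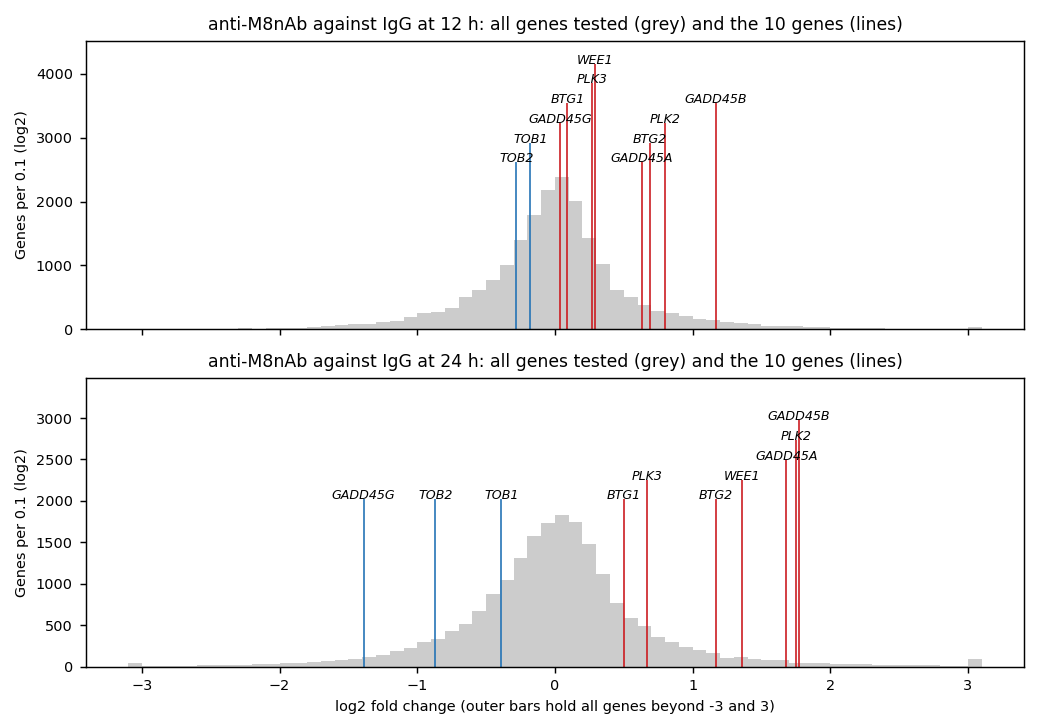
Number of genes tested (vertical axis) by log2 fold change of anti-M8nAb against IgG (horizontal axis, bins of 0.1) at 12 h and 24 h, in grey, with the 10 genes as lines whose height has no meaning. At 24 h GADD45A, GADD45B and PLK2 stand in the right tail at 1.68 to 1.77 and GADD45G in the left tail at −1.39.

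Placed among all genes tested at 24 h, 388 had a higher log2 fold change than GADD45B, 398 than PLK2, 442 than GADD45A, 706 than WEE1 and 929 than BTG2. Only 2.91% of genes had a lower log2 fold change than GADD45G and 7.99% a lower one than TOB2. TOB1, BTG1 and PLK3 lay nearer the middle, with 22.3%, 84.1% and 88.8% of genes below them. At 12 h GADD45B was the most shifted, with 759 genes above it, and GADD45G stood in the middle with 54.0% of genes below it.

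Across the 8 libraries the levels of some members followed each other closely. These correlations describe 4 groups of 2 libraries and rest mostly on the differences between groups. Pearson's r of log2 CPM was 0.98 for GADD45A with GADD45B and for GADD45A with WEE1, and 0.96 for GADD45A with PLK2 and for PLK2 with PLK3. GADD45G followed TOB2 (r = 0.91) and ran against BTG1 (r = −0.84) and WEE1 (r = −0.76). BTG1 and TOB2 ran against each other (r = −0.91). TOB1, which moved with time in both treatments, had r = 0.00 with WEE1 and 0.62 with BTG2.

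**Figure D4:**
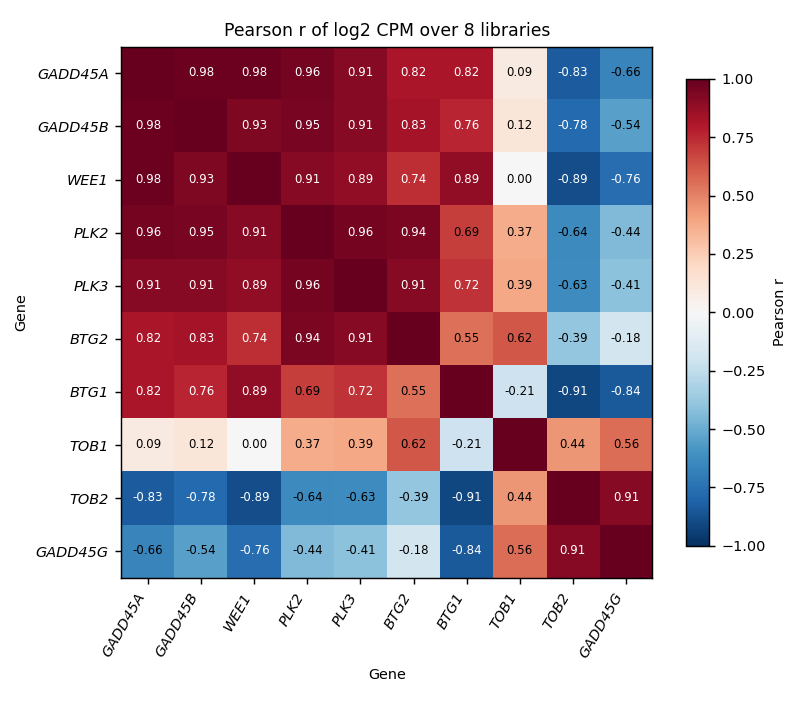
Pearson's r of log2 CPM over the 8 libraries for each pair of the 10 genes (colour scale from −1 to 1, value in each cell). GADD45A, GADD45B, WEE1, PLK2 and PLK3 form a block at 0.89 to 0.98, and GADD45G and TOB2 are negative with all 5 of them.

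Other protein-coding genes with a mean of at least 5 CPM, 11165 in number, were ranked by the same correlation over the 8 libraries. The most like GADD45A were ACTG1, a cytoplasmic actin (r = 0.9965), the RNA-binding protein gene RBMS2 (0.9947) and TAC1, the precursor of substance P (0.9941). The most like PLK2 were APLN, the ligand of the apelin receptor (0.9935), the PDGF receptor gene PDGFRB (0.9931) and PXN, which encodes the focal adhesion protein paxillin (0.9931). The most like BTG2 were the glycolipid transfer protein gene GLTP (0.9933), the neurotrophin receptor gene NGFR (0.9850) and the zinc exporter gene SLC30A1 (0.9843).

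The most like TOB2 were BICD2, a dynein adaptor (0.9903), BRF1, a subunit of the RNA polymerase III factor TFIIIB (0.9901), and PHF12 (0.9897). The most like WEE1 were MT1G (0.9963) and MT1X (0.9957), which encode metal-binding metallothioneins, and the immediate early gene EGR1 (0.9961). The log2 fold changes of these at 24 h were 4.01 for MT1G, 3.24 for MT1X and 2.87 for EGR1, against 1.36 for WEE1, so likeness here is of pattern and not of size. MT1G, MT1X and ACTG1 have near-identical relatives or pseudogenes, and their counts are less certain. An r above 0.95 was reached by 218 genes with GADD45A, 175 with PLK2, 171 with WEE1, 105 with TOB2 and 68 with BTG2.

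In the list of 20 genes of the CDK1 switch and its checkpoint, 11 were lower and 1 higher at 12 h (median log2 fold change −0.27), and 12 were lower and 5 higher at 24 h (median −0.21, all genes 0.00). Of all genes, 16.4% were lower and 15.8% higher at 12 h and 21.3% and 21.2% at 24 h, so the count of higher genes at 24 h was near the background. PLK1, the mitotic polo-like kinase, stood at 138.8 CPM with IgG against 77.9 CPM with anti-M8nAb at 24 h (log2 −0.83, SE 0.06, adjusted p = 4.15e-15) while PLK2 and PLK3 rose. CCNB1, the cyclin of CDK1, was at 243.3 and 165.2 CPM (log2 −0.56, adjusted p = 7.57e-12). CDK2, the kinase of S phase entry, was at 70.3 and 45.2 CPM (log2 −0.64, adjusted p = 1.81e-09), and BORA, which helps activate PLK1, was at 27.9 and 14.4 CPM (log2 −0.95, adjusted p = 5.80e-09). Of the 5 that were higher, SFN, which encodes the 14-3-3 protein sigma, had the largest change. It stood at 6.12 CPM in IgG against 13.9 CPM in anti-M8nAb at 24 h (log2 1.18, SE 0.18, adjusted p = 6.28e-07). The other 4, CDC25C, ATM, BTRC and FBXW11, had log2 fold changes of 0.37 to 0.44. CDK1 itself did not pass the test at 24 h (log2 0.01, adjusted p = 0.882) and was lower at 12 h (log2 −0.35, adjusted p = 3.29e-05). Of the exon sequence of BORA 37% overlaps a gene on the other strand, as does 16.8% of CDK2, 12.8% of PLK1, 8.8% of CDC25C and 0.577% of ATM.

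**Figure D5:**
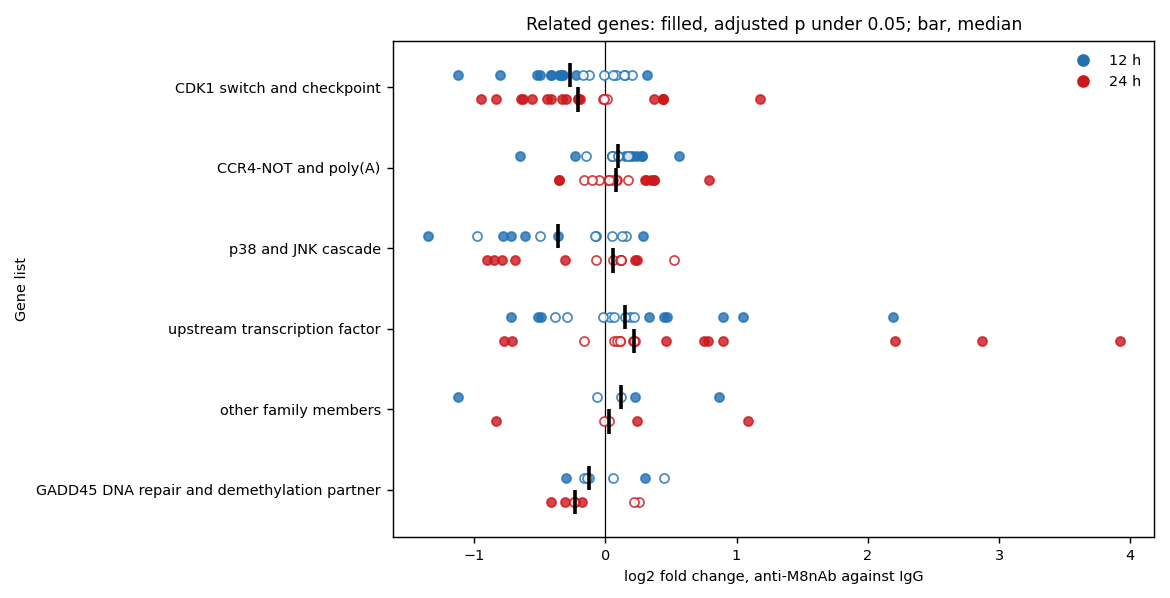
Log2 fold change of anti-M8nAb against IgG (horizontal axis) for each tested gene of 6 lists of genes related to the 10 (rows), at 12 h and 24 h, with filled points at an adjusted p under 0.05 and a bar at the median. The median of the CDK1 switch list lies at −0.27 and −0.21, and 3 transcription factors stand beyond 2 at 24 h.

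The CCR4–NOT and poly(A) list holds the deadenylase that BTG and TOB proteins recruit and also PAN2, PAN3, poly(A)-binding proteins and PRMT1. Of its 17 genes, 7 were higher and 2 lower at 12 h (median 0.10), and 6 were higher and 2 lower at 24 h (median 0.08). The counts of lower genes were near or below the background (16.4% at 12 h and 21.3% at 24 h). The counts of higher genes were above it (15.8% and 21.2%). PAN2, a catalytic subunit of the other poly(A) nuclease, stood at 30.0 CPM with IgG against 52.1 CPM with anti-M8nAb at 24 h (log2 0.79, adjusted p = 2.18e-10), with 19.5% of its exon sequence overlapped on the other strand. PABPC1, the main poly(A)-binding protein, was at 1526 and 1965 CPM (log2 0.37, adjusted p = 3.27e-10).

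Of 13 genes of the p38 and JNK cascade, the pathway that GADD45 proteins activate, 5 were lower and 1 higher at 12 h (median −0.36), and 5 were lower and 2 higher at 24 h (median 0.06). Of all genes 16.4% were lower and 15.8% higher at 12 h, and 21.3% and 21.2% at 24 h. The counts of higher genes were thus near or below the background, and those of lower genes were above it. MAP2K6, a kinase that activates p38, stood at 61.6 CPM with IgG against 33.1 CPM with anti-M8nAb at 24 h (log2 −0.90, adjusted p = 5.15e-12). MAPK12, which encodes a p38 isoform, was at 16.8 and 10.4 CPM (log2 −0.69, adjusted p = 2.12e-05), and 29.7% of its exon sequence overlaps HDAC10 on the same strand. In the list of 7 repair and demethylation partners of GADD45, 4 were lower and 3 did not pass the test at 24 h (median −0.23), where 21.3% of all genes were lower. These were PCNA, the sliding clamp of replication (log2 −0.31, adjusted p = 8.38e-06), ING1 (−0.41, adjusted p = 0.00055), TET1 (−0.23, adjusted p = 0.00699) and TDG (−0.18, adjusted p = 0.00829). At 12 h TET1 was lower (log2 −0.30, adjusted p = 0.000623) and TET3 higher (log2 0.30, adjusted p = 0.0147).

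Among 17 transcription factors known to act on members of these families, 6 were higher and 3 lower at 12 h (median 0.15), and 8 were higher and 2 lower at 24 h (median 0.22). The lower ones were near or below the background of 16.4% at 12 h and 21.3% at 24 h, and the higher ones were above that of 15.8% and 21.2%. JUN, a subunit of AP-1, stood at 9.32 CPM with IgG against 42.5 CPM with anti-M8nAb at 12 h, and at 8.34 and 126.4 CPM at 24 h (log2 2.19 and 3.92, adjusted p = 1.98e-22 and 1.30e-33). ATF3, a stress-induced factor, was at 25.7 and 53.2 CPM at 12 h and at 23.6 and 109.0 CPM at 24 h (log2 1.05 and 2.21, adjusted p = 1.08e-12 and 1.35e-24). Of 7 other genes listed beside these families, BTG4 and WEE2 were below the filter. PLK1 fell at both times, PLK4 rose at 12 h (log2 0.23, adjusted p = 0.0195), and PLK5 was low, with 0.994 CPM in IgG against 2.12 CPM in anti-M8nAb at 24 h (log2 1.09, adjusted p = 0.0110).

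Of the 10 pluripotency markers 8 were higher and 2 did not pass the test at 12 h (median 0.14), and 3 were higher and 3 lower at 24 h (median 0.07). The background was 15.8% higher at 12 h and, at 24 h, 21.2% higher and 21.3% lower, so the 24 h counts were near it. ZFP42, an hESC marker, fell by 0.48 on the log2 scale at 24 h (adjusted p = 1.35e-09), and DPPA4 rose by 0.32 (adjusted p = 5.43e-08). Of the 7 early differentiation markers tested, 4 were higher at 12 h, namely PAX6, SOX1, EOMES and NES, of which NES alone was above 3 CPM in any group mean. At 24 h NES was higher (log2 0.50, adjusted p = 1.26e-09), and FOXA2 (−2.03, adjusted p = 5.42e-06) and MIXL1 (−1.51, adjusted p = 0.0106), both under 3 CPM in every group mean, were lower. Of the 6 mesenchymal markers tested, PDGFRB (log2 0.68, adjusted p = 1.02e-08) and THY1 (0.33, adjusted p = 2.51e-07) were higher and COL1A2 (−1.09, adjusted p = 1.37e-14) lower at 24 h.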

How the data were processed

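RNA from 8 samples of BG01 cells was sequenced. Per the labels and the methods, the authors used Trimmomatic for trimming, mapped the reads on GRCh38.p14 by the STAR 2-pass method, removed duplicates with Picard and obtained the deposited counts per Ensembl gene with HTSeq. The deposited FPKM were computed by the authors with RNAnorm. The submitters' processing notes also name FastQC 0.11.9 and GATK. In the count table, 1005 lines have a blank gene name and hold 53.3 to 54.1% of all counts of a library. They were left out, as were 4 columns that match no sample. All 62086 identifiers were paired with a GENCODE v44 symbol, 61100 with the same version. Reads of both strands were counted, so overlap of exons is given beside many of the genes it touches. Among those named without it, other genes overlap 26.3% of the exon sequence of PAX6, 12.5% of THY1 and 5.3% of ING1. The overlap was 3.44% in TDG, 3.01% in TET3, 2.95% in PLK3, 2.19% in PLK5 and 1.12% in WEE1. Pseudogenes of members held few reads (TOB2P1 at most 20, BTG1P1 at most 2).

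In R 4.3.3 with edgeR 4.0.16, genes with low counts were removed by filterByExpr (20165 kept), counts were scaled by TMM and all 8 libraries entered one model of group means. Contrasts were tested with the two-sided quasi-likelihood F test and Benjamini-Hochberg adjustment over all genes tested. A gene was called at an adjusted p under 0.05. Levels are TMM-scaled CPM, and log2 CPM used a prior count of 2. Replicates varied 2.23 to 4.21 times as much as counting alone gives, with a common biological coefficient of variation of 5.53%. Alternatives used DESeq2 1.42.0, DESeq2's size factors, other filters, limma 3.58.1 on log2(FPKM + 1) or log2(FPKM + 0.1), the libraries of each comparison alone, protein-coding genes alone (added after seeing the data), a replicate term and each library left out in turn.

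All 10 members are named. Of each list the text names the 2 genes with the smallest p at 24 h (4 for the CDK1 switch) and, where 5 or fewer were called, those called. For 5 members it names the 3 genes of the highest Pearson correlation. Some genes are named outside this rule and after their values were seen. They are SFN and the other higher genes of the CDK1 switch list, CDK1, PODXL, MAPK8, COL1A1, COL3A1 and POSTN. Genes below the filter (BTG4 among them) and the early differentiation markers called at 12 h were also named so. The result of 1 gene of a list is not reported here. The members, lists and tests were chosen with earlier results of these data known. Promoters came from RefSeq (GRCh38.p14).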

Additional observations from a re-analysis of the deposited data

Results flagged for a closer look

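The response to anti-M8nAb differed between 24 and 12 h, by the test of the difference itself, in 6 of the 10 genes. The log2 fold change at 24 h less that at 12 h was 1.05 for GADD45A, 0.95 for PLK2, 1.08 for WEE1 and 0.41 for BTG1, which moved to more positive values, and −1.43 for GADD45G and −0.59 for TOB2, which moved to more negative ones. For GADD45G the 12 h response was near 0 (log2 0.04), and its IgG level rose from 9.21 to 17.2 CPM between the times while its anti-M8nAb level went from 9.43 to 6.57 CPM. No group had enough libraries for a check of single values that stand far from the others.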

How the results depend on the processing

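Over the 10 genes, 5 comparisons and all alternatives there were 890 log2 fold changes. Of these, 847 kept their side of the threshold, 40 lost the call, 3 gained one and 0 called changes reversed direction. Some changes that did not pass the test also changed sign, such as GADD45G at 12 h (log2 −0.12 to 0.23, main analysis 0.04). At 24 h against IgG, 179 of 180 kept their call, the exception being BTG1. The fewest calls remained with limma on log2(FPKM + 1) without a filter, which gave 2 members higher at 12 h (5 in the main analysis), 1 more positive and 0 more negative in the difference between times (4 and 2), 2 higher over time with IgG (6) and 0 lower over time with anti-M8nAb (2). Members lower at 12 h numbered 2 in place of 1 with limma on log2(FPKM + 1) or log2(FPKM + 0.1), the added one being TOB1. Members lower over time with anti-M8nAb numbered 1 with no filter on low counts and 1 with limma on log2(FPKM + 1), and 0 to 2 when a library was left out (0 without anti-M8nAb 24 h replicate 2, 1 without anti-M8nAb 12 h replicate 2). The causes were not tested.

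Under that unfiltered limma fit GADD45A and PLK2 at 12 h had adjusted p = 0.0613 and 0.0617. BTG2 at 12 h lost its call in 4 of 18 alternatives (adjusted p up to 0.220), and the BTG1 difference between times in 9 of 17 (up to 0.388), DESeq2 among them (0.0560).

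Over all genes, the calls for the difference between times numbered 2486, against 1228 with no filter on low counts, 919 and 896 with limma on log2(FPKM + 1) and log2(FPKM + 0.1) and 454 with the former unfiltered. For IgG over time they numbered 2753, against 1416, 766, 683 and 246. The unfiltered limma fit called 3036 genes at 12 h (6496), 5697 at 24 h (8566) and 3117 over time with anti-M8nAb (6424). Without IgG 12 h replicate 1 there were 4241 calls at 12 h, 1452 for the difference and 1263 for IgG over time. Without IgG 12 h replicate 2 the latter 2 were 1566 and 928, and without IgG 24 h replicate 2 IgG over time had 1519.

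With the replicate block, 5 members were higher and 1 lower at 12 h, 7 and 3 at 24 h, 4 more positive and 2 more negative in the difference, 6 and 0 over time with IgG and 8 and 2 with anti-M8nAb, the same counts as without it. Same-numbered libraries deviated together with r of −0.05 to 0.04, so no effect shared by replicate number was seen. This cannot show whether the numbers pair samples. A library left alone in its group was assumed to vary like the other groups.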
